A study of Mus musculus with 11 samples.

Results

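A run of 7 non-coding features, from the space between the mouse genes Tc2n and Catsperb into the 3′ part of Catsperb, was clearly expressed in retina lacking Nrl and close to silent in wild-type retina. The features were all those of the deposited table on chromosome 12 (mm10) that overlap a window of 170001 bp, reaching from inside Catsperb to just past the start of Tc2n: 7 of 36097 unique features. All 7 lie on the minus strand and 0 on the plus strand. The window was drawn around MSTRG.21903 and MSTRG.21904 because both were higher in the knockout, so the differences between genotypes inside it are given as descriptions: no p-value is printed for them, and nothing is read from how many pass a threshold.

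The tissue was whole retina of mice at postnatal day 21, in 6 libraries of Nrl knock-out mice and 5 libraries of wild-type mice. RNA depleted of polyadenylated transcripts was sequenced, per the labels. Sources used here do not give the Nrl allele, the strain or the sex. Because no animal is named for any replicate, the p-values reflect variation among libraries, part of which may be technical.

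Nrl encodes a bZIP transcription factor on which rod development depends, and without it the photoreceptors are known to take on cone-like features. Catsperb encodes an auxiliary subunit of CatSper, a calcium channel of the sperm tail that is needed for male fertility. Tc2n encodes a protein with tandem C2 domains, a fold that often binds membranes. Non-coding RNA can arise on the strand opposite to a gene, between genes, or beyond the annotated end of a gene when transcription goes on past it.

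The 2 genes point toward each other. Catsperb runs on the plus strand from 101404653 to 101626009 and Tc2n on the minus strand from 101645443 to 101718523, which leaves 19433 bp between their ends (GENCODE M21, mm10). The run starts 4475 bp beyond the annotated 3′ end of Tc2n and continues in the direction of Tc2n transcription for 30752 bp, from 101640967 down to 101610216. Its features cover 19142 bp of that span. The name of an antisense locus of Catsperb fits only a portion of the run: 5 of the 7 features overlap Catsperb, while MSTRG.21904 and MSTRG.21905 lie wholly in the space between the genes. None of the 7 overlaps Tc2n.

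From the Tc2n side, the run opens with MSTRG.21905, 627 bp long (chr12:101640341-101640967). MSTRG.21904 follows after a gap of 396 bp and is 7126 bp long (chr12:101632819-101639944). MSTRG.21903 follows after 303 bp, is 9170 bp long (chr12:101623346-101632515) and enters the 3′ end of Catsperb with 29.1% of its length, 635 bp of it over Catsperb exons. MSTRG.21902, 1027 bp long, comes after a further 288 bp (chr12:101622031-101623057) and lies wholly inside Catsperb, with 136 bp over an exon. After a gap of 9005 bp come 3 short features in an intron of Catsperb: MSTRG.21901 (406 bp, chr12:101612620-101613025), MSTRG.21900 (227 bp, chr12:101611399-101611625) and MSTRG.21899 (559 bp, chr12:101610216-101610774). The nearest other feature of the table is 125652 bp away on the Tc2n side and 516877 bp away on the Catsperb side.

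The sequences below are the wholly coding exons of Catsperb inside the run, 3 of the 27 exons in the annotated transcript used. The last exon, which also lies inside MSTRG.21903 and is not wholly coding, is not shown. They are written 5′ to 3′ on the minus strand, the strand of the run, so that each is the reverse complement of the Catsperb mRNA, and they show where the run crosses the gene; they come from the GENCODE M21 transcript set (GRCm38) and carry no capitals because no part is singled out.
Exon 24, inside MSTRG.21902, chr12:101622186-101622321: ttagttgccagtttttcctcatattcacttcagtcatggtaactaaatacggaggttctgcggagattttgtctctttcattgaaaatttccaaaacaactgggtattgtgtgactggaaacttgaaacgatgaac
Exon 25, inside MSTRG.21903, chr12:101624637-101624737: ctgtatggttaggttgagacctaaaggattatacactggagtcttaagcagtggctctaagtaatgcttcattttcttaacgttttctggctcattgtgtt
Exon 26, inside MSTRG.21903, chr12:101625224-101625298: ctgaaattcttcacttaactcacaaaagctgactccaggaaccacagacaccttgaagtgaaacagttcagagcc

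The promoter windows of the 2 genes are shown because the table lists both mRNAs as higher in their chromosomal domain. They are RefSeq windows of 300 bases on GRCm38.p6, on the strand of each gene, in which capitals would mark a motif match.
Tc2n, chr12:101718474-101718773, minus strand: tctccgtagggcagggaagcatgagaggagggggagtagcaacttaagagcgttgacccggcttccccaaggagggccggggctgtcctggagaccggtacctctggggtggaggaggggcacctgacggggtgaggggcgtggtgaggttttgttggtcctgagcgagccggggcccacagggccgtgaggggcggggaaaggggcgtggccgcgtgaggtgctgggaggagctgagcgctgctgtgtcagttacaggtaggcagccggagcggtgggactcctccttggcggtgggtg
Catsperb, chr12:101404423-101404722, plus strand: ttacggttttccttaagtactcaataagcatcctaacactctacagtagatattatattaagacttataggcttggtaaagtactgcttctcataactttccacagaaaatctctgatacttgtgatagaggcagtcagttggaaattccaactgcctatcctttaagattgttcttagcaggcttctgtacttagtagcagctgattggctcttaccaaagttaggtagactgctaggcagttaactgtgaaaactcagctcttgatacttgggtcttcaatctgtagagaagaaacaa
Both windows held 0 matches, on either strand, to TAATCC (bound by the homeodomain factors CRX and OTX2), TGCTGA (part of the site of MAF factors, NRL among them), AGGTCA (nuclear receptors) and TATAAA (the TATA box). No match was found in the window of the other Tc2n start either (chr12:101711524-101711823). The neighbouring gene Fbln5 was searched too. Its window chr12:101818435-101818734 held TGCTGA on the opposite strand from base -36 and AGGTCA from base -1, counted from the annotated start. Its other window, chr12:101819070-101819369, held 0 matches. Of 32851 RefSeq promoter windows of this length, 7.06% held TAATCC, 19.5% held TGCTGA, 16.3% held AGGTCA and 13.6% held TATAAA. The letters are a description of these windows and say nothing of which factors bind there or elsewhere.

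MSTRG.21904, the longer of the 2 features in the space between the genes, carried the most reads of the run. It held 290.1, 405, 807, 557, 643 and 1091 normalised counts in knockout 1 to 6, against 5.49, 8.47, 3.71, 14.5 and 16.1 in wild-type 1 to 5. The lowest knockout library was far above the highest wild-type library. A normalised count is a read count divided by the authors' size factor for the library. The means were 632 ± 288 (SD, n = 6) in knockout and 9.66 ± 5.47 (SD, n = 5) in wild-type, a ratio of 65.4. The log2 difference was 5.93 (SE 0.33), on the scale log2(normalised count + 1), which also holds for the other log2 differences unless another setting is named.

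MSTRG.21903, which runs from the intergenic space into the last exons of Catsperb, behaved alike. It held 203, 247, 440, 396, 381 and 702 normalised counts in knockout 1 to 6, against 5.49, 0.941, 5.57, 6.77 and 5.04 in wild-type 1 to 5. The groups did not overlap. The means were 395 ± 176 (SD, n = 6) in knockout and 4.76 ± 2.23 (SD, n = 5) in wild-type, a ratio of 82.9 and a log2 difference of 6.13 (SE 0.32). Together these 2 features held 90.5% to 92.5% of the run's normalised counts in each knockout library.

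At the Tc2n end, MSTRG.21905 held 21.8, 32.3, 49.0, 28.8, 43.2 and 56.6 normalised counts in knockout 1 to 6, against 0, 0, 0.928, 0.967 and 1.01 in wild-type 1 to 5. In wild-type this amounts to 3 reads in all, and the groups did not overlap. The reads, scaled by library, differed 64.1-fold (exact 95% interval 21.7 to 313, counting error only). At the other junction MSTRG.21902 had 13.5, 17.2, 29.9, 21.1, 16.7 and 50.8 normalised counts in knockout 1 to 6, against 0.967 in wild-type 4 and 0 in the other 4 wild-type libraries. The ratio of scaled reads was 121 (exact 95% interval 21.4 to 4817), a wide range because wild-type gave 1 read.

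The 3 features in the Catsperb intron had the lowest levels. MSTRG.21901 held 6.06 to 21.5 normalised counts in knockout (median 13.5), against 0 in every wild-type library. Against a floor of 3 reads in each wild-type library, which averages 3.13 normalised counts, its knockout mean of 13.2 ± 5.07 (SD, n = 6) was at least 4.21-fold higher. MSTRG.21899 held 3.12 to 25.4 normalised counts in knockout (median 10.3), against 1.01 in wild-type 5 and 0 in the other 4 libraries. MSTRG.21900 held 2.08 to 11.6 normalised counts in knockout (median 4.67), against 0.928 in wild-type 3 and 0 in the other 4 libraries. The ratios of scaled reads were 57.6 (exact 95% interval 10.04 to 2305) for MSTRG.21899 and 27.7 (4.67 to 1123) for MSTRG.21900. At these depths 0 reads in wild-type means not detected, not absent.

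**Figure D1:**
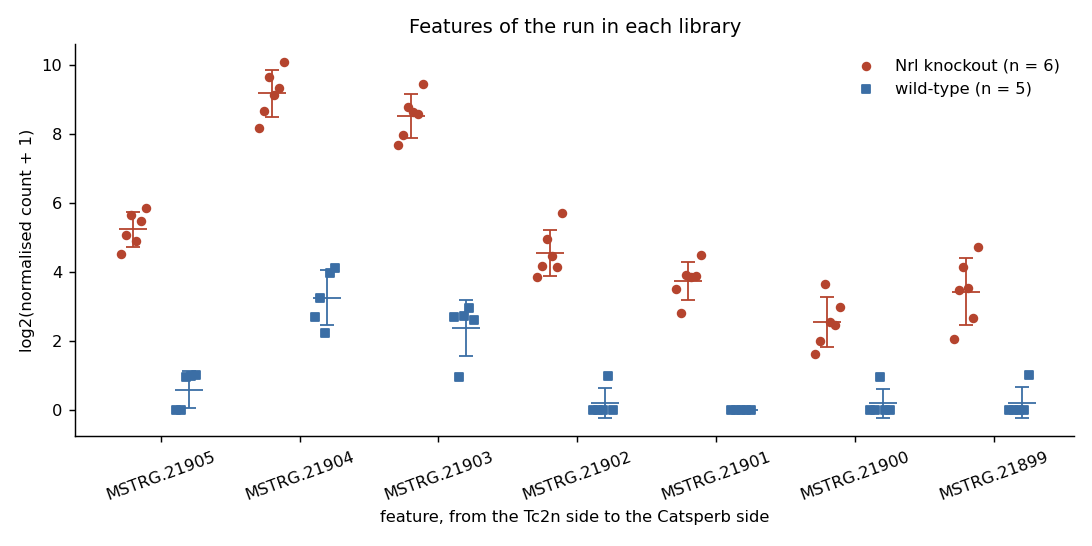
Level of each feature of the run, as log2(normalised count + 1), in 6 Nrl knockout libraries (circles, left) and 5 wild-type libraries (squares, right), with the mean and SD of the log2 values. For each of the 7 features the lowest knockout library lies above the highest wild-type library; MSTRG.21901 is at 0 in all 5 wild-type libraries.

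In all 7 features every knockout library was above every wild-type library. That pattern was shown by 8.28% of the 36097 features, and by 11.1% of the tested ones; groups apart in either direction made up 20.2% of the tested ones. Of the 7, MSTRG.21900 fell below the mean of 5 normalised counts required for testing across the table. The 6 tested features all passed the threshold of the fit over 21395 features (limma, Benjamini-Hochberg adjusted p below 0.05), where 15.6% of features were higher in knockout. A log2 difference of at least 4 was seen in 4 of them and in 0.678% of all tested features. Apart from MSTRG.21904, whose wild-type mean was 9.66, the tested features of the run could pass the filter only by being high in knockout. Since the window was also chosen from this contrast, nothing is read from these counts. The log2 differences of the 6 tested features ran from 3.23 to 6.13 with a median of 4.50, beside a median of -0.02 over all tested features. The authors' deposited table gives log2 fold changes of 6.39 (SE 0.40) for MSTRG.21903 and 6.02 (SE 0.46) for MSTRG.21904. In whole retina, more cells that carry an RNA and more of it per cell cannot be told apart.

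Levels per length were uneven along the run in the knockout. Per kb of feature, MSTRG.21905 held 61.6 ± 21.0 normalised counts, MSTRG.21904 88.7 ± 40.4 and MSTRG.21903 43.1 ± 19.2 (SD, n = 6 knockout libraries each). Beyond them MSTRG.21902 held 24.2 ± 13.5 per kb and the 3 intronic features 32.5 ± 12.5, 24.2 ± 15.1 and 21.2 ± 14.5. The level per length was thus highest with the middle of the feature 9062 bp beyond the end of Tc2n, and lower in the 5 features whose middle lay 17513 bp or more beyond it. Features next to each other in the order of these levels overlapped in mean ± SD. Within each knockout library the order of the 2 long features was the same: per kb, MSTRG.21904 was 1.81 to 2.36 times MSTRG.21903 in the 6 libraries. In wild-type the same ratio ran from 0.858 to 11.6, on 8 to 24 reads in the whole run per library. Wild-type levels per kb averaged 1.36 ± 0.77 for MSTRG.21904 and 0.519 ± 0.243 for MSTRG.21903 (SD, n = 5).

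**Figure D2:**
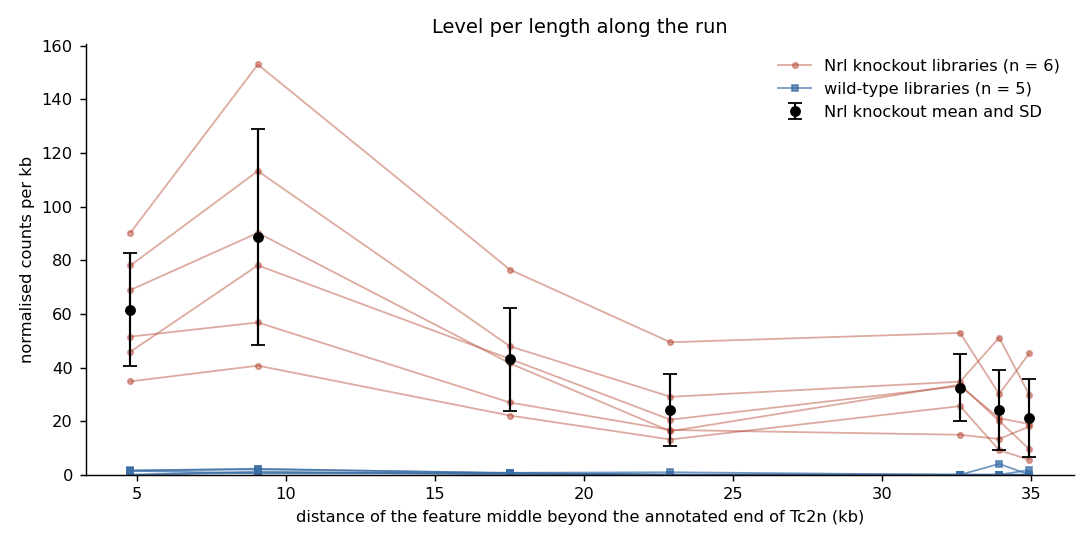
Normalised counts per kb of each feature against the distance of its middle beyond the annotated end of Tc2n, as lines for 6 Nrl knockout libraries and 5 wild-type libraries, with the knockout mean and SD in black. The knockout mean is 88.7 per kb at 9062 bp and 21.2 to 32.5 per kb in the 4 features farthest from Tc2n, while the wild-type lines stay near 0.

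The level of the run differed among the knockout libraries. The summed run held 543.8, 721, 1368, 1032, 1108 and 1954 normalised counts in knockout 1 to 6, against 10.97, 9.41, 11.1, 23.2 and 23.2 in wild-type 1 to 5. Knockout 6 was the highest library for 6 of the 7 features, and knockout 1 the lowest for 6 of 7. For MSTRG.21904 the coefficient of variation over the 6 knockout libraries was 45.6%, and for MSTRG.21903 it was 44.6%. Counting error alone would give 3.80% and 4.83%. Spread beyond counting error was also seen over the table. There, libraries of the same genotype differed with a chi-square per degree of freedom of 4.80 to 52.9, where counting alone gives about 1. That value pools the features of the table and was not computed for the run. In reads, the run held 523 to 2001 per knockout library and 8 to 24 per wild-type library. That was 0.0146% to 0.0496% of the reads in listed features in knockout and 0.000247% to 0.000624% in wild-type.

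The 2 long features rose and sank together over the knockout libraries. Across the 6 libraries their log2 values correlated with Pearson r = 0.98 (exact two-sided permutation p = 0.00278 over 720 pairings) and Spearman rho = 0.943 (exact permutation p = 0.0167). Without knockout 1 and knockout 6, the libraries farthest from the median of MSTRG.21903, r was 0.92 over 4 libraries. This was the 1 relation computed, and it lies within a genotype, so it does not rest on the contrast that chose the window. Scaling to the library is shared by both features. Over the 1657 other features that were higher in knockout with a mean of at least 20, the median log2 deviation from the knockout mean was -0.04 in knockout 6 and 0.20 in knockout 1. For the run the median deviation was 0.92 in knockout 6 and -0.84 in knockout 1.

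**Figure D3:**
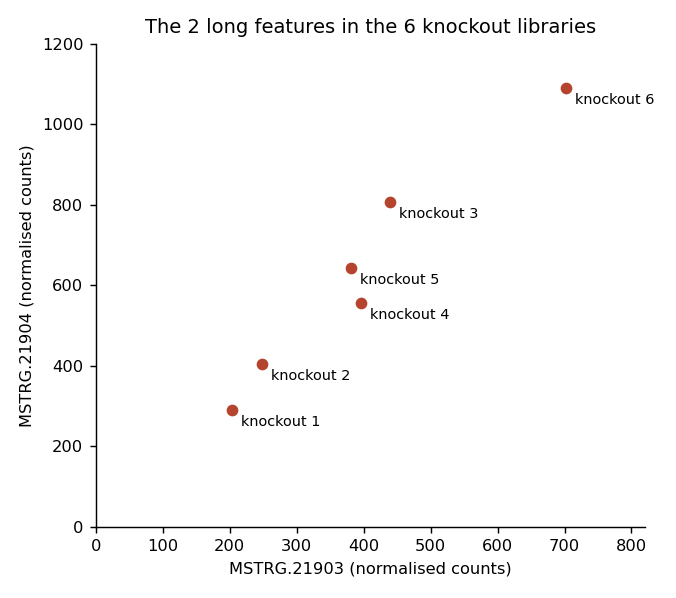
MSTRG.21904 against MSTRG.21903 in normalised counts, 1 point for each of the 6 Nrl knockout libraries. Knockout 1 lies lowest at 203 and 290.1 normalised counts and knockout 6 highest at 702 and 1091, with r = 0.98 on the log2 values.

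Features to the right of the window, in and beyond Fbln5, also differed between the genotypes. Within 500000 bp of either end of the window the table lists 20 further features, 2 before it and 18 after it, of which 13 were tested. In limma, 8 were higher in knockout and 2 lower at an adjusted p below 0.05, and 3 were not called; among all tested features 15.6% were higher and 12.6% lower. The median log2 difference of the 13 was 2.40. Of the 8 higher features, 5 had a wild-type mean below 5 normalised counts and so reached the limit for testing only through the knockout; for these the count carries the same limit as for the run. The 8 higher features lay between 125652 and 568926 bp from the run.

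The nearest of them lie opposite to Fbln5, the gene of fibulin-5, an extracellular matrix protein needed to build elastic fibres. MSTRG.21912 (chr12:101766620-101768558, plus strand) held 84.9 to 253 normalised counts in knockout (median 196), against 9.60, 2.82, 0, 1.93 and 3.03 in wild-type 1 to 5. The groups did not overlap: knockout exceeded wild-type by 5.68 on the log2 scale (SE 0.42, limma adjusted p = 3.25e-10). MSTRG.21915 (chr12:101778802-101779744, plus strand) held 29.6 to 113 in knockout (median 73.5), against 2.74, 1.88, 2.78, 0 and 0 in wild-type, a log2 difference of 5.03 (SE 0.39, limma adjusted p = 5.74e-11). With wild-type means of 3.48 and 1.48, both features reached the limit for testing only through the knockout. Nothing is read from their p-values. The order of the knockout libraries was not that of the run: MSTRG.21912 held 253 normalised counts in knockout 1 and 149 in knockout 6, and MSTRG.21915 held 113 and 68.3 there.

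Opposite to Slc24a4, the gene of a sodium, potassium and calcium exchanger, 2 features of higher level rose in the knockout. MSTRG.21946 (chr12:102200826-102201547, minus strand) averaged 61.2 ± 19.2 normalised counts in knockout (SD, n = 6) and 5.64 ± 3.44 in wild-type (SD, n = 5), a log2 difference of 3.33 (SE 0.31, limma adjusted p = 1.81e-09). MSTRG.21947 (chr12:102209894-102210986, minus strand) averaged 119 ± 23.1 in knockout and 15.1 ± 4.47 in wild-type, a log2 difference of 2.91 (SE 0.22, limma adjusted p = 4.03e-11). The groups did not overlap in either. Since the use of strand in counting is not known here and the table lists Slc24a4 mRNA as higher in knockout, reads of these features cannot be told with certainty from reads of Slc24a4. Outside these genes, MSTRG.21936 (chr12:102030171-102032945, plus strand) averaged 492 ± 115 in knockout and 121 ± 39.3 in wild-type, a log2 difference of 2.02 (SE 0.20, limma adjusted p = 4.45e-09). MSTRG.21939 (chr12:102115707-102116914, plus strand) went the other way, with 26.9 ± 11.7 in knockout and 67.3 ± 27.1 in wild-type, a log2 difference of -1.29 (SE 0.28, limma adjusted p = 5.61e-04), although the groups overlapped. On the Catsperb side the 1 tested feature, MSTRG.21892, had a log2 difference of -0.14 (SE 0.27, limma adjusted p = 0.760).

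**Figure D4:**
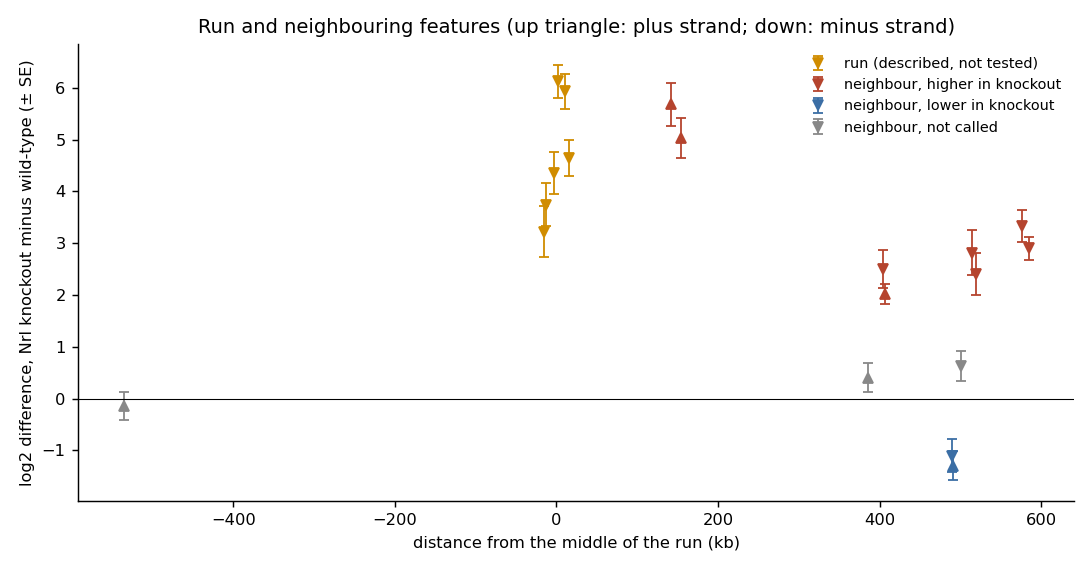
Log2 difference, Nrl knockout minus wild-type, with its SE, for the 6 tested features of the run and the 13 tested features within 500000 bp of the window, against distance from the middle of the run; up triangles are on the plus strand and down triangles on the minus strand. The run and the 2 features opposite to Fbln5 have differences between 3.23 and 6.13, and 2 features further right lie below 0.

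The table sets the run in a chromosomal domain with 30 features, for which it lists Catsperb, Rin3, Slc24a4 and Tc2n as mRNAs higher in knockout and 0 mRNAs as lower. No source used here says how the domains and mRNA lists were made. Outside the window 15 features of the domain were tested, with a median log2 difference of 2.02. The 8 higher and 2 lower among them are the 10 features already counted beside the window, and the shares over all tested features were 15.6% and 12.6%. Of 13 genes listed as neighbours, 4 had features outside the window in the table, namely Fbln5, Slc24a4, Rin3 and Ccdc88c. Of the 8 such features tested, 6 were higher, 0 lower and 2 without a call, and their median log2 difference was 2.86. The 6 are again among the features counted beside the window, so they add no further calls to those set against 15.6% above. The limit given there, for features that reached testing only through the knockout, holds for the counts and medians of the domain and neighbours too. Tc2n, which lies just ahead of the run on the same strand, has 0 features of its own in the table.

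The table holds little on the other genes of the CatSper channel. Of the 15 besides Catsperb, 10 had no feature, and 5 had 6 features in all, each opposite to its gene. limma called 0 of the 4 tested, with 0 at an unadjusted p below 0.05, and edgeR and DESeq2 each called 0 of 4. With 28.1% of all tested features called in either direction, 0 of 4 does not set these genes apart. At Catsper4, which encodes a pore subunit and whose mRNA is listed as higher, MSTRG.64469 averaged 13.3 ± 5.21 normalised counts in knockout (SD, n = 6) and 17.1 ± 9.08 in wild-type (SD, n = 5; limma adjusted p = 0.760). At Catsperg1, which encodes another auxiliary subunit, MSTRG.78811 averaged 12.9 ± 6.86 in knockout and 7.69 ± 1.17 in wild-type (limma adjusted p = 0.294). No feature of the table overlaps any of the 8 genes on a list of male germ line markers, Catsper1, Catsper2 and Catsper3 among them.

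Features elsewhere whose pattern over the 11 libraries was most like that of the run lay mostly on chromosome 19. Those on chromosome 19 all lie on the minus strand within chr19:8451925-8543422, so they come from the same stretch and not from separate places. Likeness was the mean absolute difference between log2 values after centring each feature on its own mean. It spans both genotypes, so it follows in large part the contrast that chose the window. The features listed here from outside the window had log2 differences of 5.08 to 6.29. Likeness within a genotype was not tested. For MSTRG.21903, MSTRG.21904 was at 0.48, and the 5 nearest outside the window were MSTRG.44705 and MSTRG.44710 in the predicted gene Gm8189 on chromosome 19 (0.51 and 0.55), MSTRG.89156 opposite to Def8 on chromosome 8 (0.53), the intergenic MSTRG.21499 on chromosome 12 (0.55) and the intergenic MSTRG.44700 on chromosome 19 (0.56). For MSTRG.21904 the 5 nearest were MSTRG.21499 (0.40), MSTRG.44698 (0.40), MSTRG.44704 (0.56), MSTRG.44705 (0.57) and MSTRG.44710 (0.58). MSTRG.21499 (chr12:86903930-86913395, minus strand) averaged 456 ± 118 normalised counts in knockout (SD, n = 6) and 6.65 ± 3.09 in wild-type (SD, n = 5). The tested short features of the run were farther from MSTRG.21903, at 0.75 to 1.44. Their log2 differences, 3.23 to 4.65 here, are made smaller by the constant added to low values. In DESeq2 on 9 libraries they were 6.00 to 6.39, beside 6.52 for MSTRG.21903. MSTRG.21900 was not scored.

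In the libraries as a whole, reads in the listed features ranged from 3374221 to 4876429 in knockout and from 3238184 to 4150460 in wild-type. The feature opposite to Nrl, MSTRG.28375, held 0 to 0.758 normalised counts in knockout and 33.3 to 55.5 in wild-type, so the libraries fall apart by label; whether it lies in the part changed by the allele is not known here. The counts of marker features that follow stand beside 15.6% higher and 12.6% lower over all tested features. Summed features at rod genes held 320.0 to 493 normalised counts in knockout and 2363 to 4264 in wild-type, with 18 of 28 tested lower and 4 higher. Summed features at cone genes held 1195 to 1814 in knockout and 350.0 to 391 in wild-type, with 14 of 22 higher and 2 lower. Knockout 1, the lowest library of the run, had the highest cone sum and knockout 5 the lowest. Whether the run moved with the make-up of the photoreceptors was not tested. Of the other marker lists, bipolar features had 4 of 16 higher and 1 lower, and of 18 tested features at Müller glia, amacrine, ganglion, horizontal and pigment epithelium markers 0 were higher and 3 lower. Microglia markers had 1 feature, at Aif1, below the limit for testing, and endothelial markers had 0 features. Retinal long non-coding RNAs had 34 tested features at 5 genes, 4 higher and 4 lower, with sums of 10837 to 19451 normalised counts in knockout and 12899 to 15124 in wild-type.

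Reads of the 5 features that overlap Catsperb cannot be told with certainty from reads of Catsperb itself, which the table lists as a higher mRNA. The labels state stranded reads, but no source used here says whether counting used strand. MSTRG.21904 and MSTRG.21905, which overlap neither annotated gene, had ratios of 65.4 and 64.1. They lie 6809 and 14331 bp past the annotated end of Catsperb, and 5498 and 4475 bp past that of Tc2n. Whether transcripts of either gene reach them was not tested, so lack of overlap does not set their reads apart from those genes.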

How the data were processed

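RNA depleted of polyadenylated transcripts, from 6 Nrl knockout and 5 wild-type retinas at postnatal day 21, was sequenced with single-end stranded reads of 50 bp, per the labels' protocols. The deposited table holds 1 signal column per library, read counts normalised with DESeq2 on mm10, as its name and the file headers say. Tools listed in the submitters' processing notes are Cuffdiff, Cufflinks 2.2.1 and TopHat2 2.0.10, beside the builds mm9 and mm10, in no stated role. Sources used here do not name the assembler, the counting tool or its strand setting. Per the file headers, the authors also deposited their comparison of the genotypes as a log2 fold change, a score and a p-value with its adjusted form; the score has the opposite sign to the fold change in 100% of features, so directions were taken from group means. The table has 36180 lines for 36097 unique features, 83 of them in 2 domains, and each was used 1 time. Its starts count from 0: of 155 Ensembl-named features, 147 met an exon start after adding 1 and 0 as written. Positions are given here counting from 1. Placement used GENCODE M21, with an overlap of at least 1 bp.

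Every value was a whole multiple of its library's smallest value above 0 (tolerance 0.001, 100% of values), which gives the reads. No molecular identifiers were used, so intervals and the floor of 3 reads cover counting error only. The main test was limma 3.58.1 in R 4.3.3 (trend and robust) on log2(normalised count + 1), two-sided, for features with a mean of at least 5, with Benjamini-Hochberg adjustment over all 21395 tested. As count tests, edgeR 4.0.16 (quasi-likelihood) and, separately, DESeq2 1.42.0 took the reads of 9 libraries, 5 knockout and 4 wild-type. Knockout 2 and wild-type 5 were left out of these tests only. Their value per read (1.01 normalised counts in both) is near 1, and a check of units did not accept their recovered reads. Their values were whole multiples as well, and their reads are used in the other results. The main test, edgeR and DESeq2 were also run on simulated counts with known changes. The simulation gave every feature the same extra spread, unlike the real libraries. Its outcome is not reported here and nothing is read from it.

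The 7 features and the gene lists were chosen with earlier results of these data known. By rule, the text names the features of the window with a mean of at least 5, the called neighbours with a mean of at least 20 up to 6, the 5 features most like each long feature, and up to 4 called features of each gene list. MSTRG.21900, MSTRG.21892, MSTRG.64469 and MSTRG.78811 fall outside that rule and were named after their values were seen. Of 13 neighbour symbols 12 were found in the annotation. No genome sequence was used, so motifs were searched in RefSeq promoter windows and not at the starts of the features.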

Additional observations from a re-analysis of the deposited data

Results flagged for a closer look

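Of 26 groups of libraries examined (13 features, each in knockout and wild-type), 4 had a library far from the others by Dixon's test. Its chance rate of about 1 group in 20 is for normally spread values and does not hold for groups of near-0 counts. In 3 of the 4 flagged groups the library apart is the single wild-type library with a read, the other 4 being at 0, a pattern the test always flags. These were MSTRG.21902 with 0.967 normalised counts in wild-type 4, MSTRG.21900 with 0.928 in wild-type 3 and MSTRG.21899 with 1.01 in wild-type 5. The fourth is MSTRG.21936, with 191 normalised counts in wild-type 1, against 94.1 to 111 in the other wild-type libraries and below every knockout library.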

How the results depend on the processing

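The log2 differences of MSTRG.21903 and MSTRG.21904 stayed between 5.28 and 6.52 and between 5.40 and 6.39 under the alternatives run, which include other pseudocounts and the scales of edgeR and DESeq2. With a pseudocount of 5 that of MSTRG.21903 was 5.28; the size of such a difference depends on the constant added to low wild-type values, most of all for the short features. Requiring a mean of at least 20, which tests fewer features, left 1722 higher and 1628 lower in the table, 3 called in the window, and 5 higher and 1 lower in the flanks. Without any filter, 4314 were higher and 3293 lower, and 7 were called in the window. edgeR called 3215 higher and 2518 lower features and DESeq2 2960 and 2508, against 3098 and 2542 for limma on the same 9 libraries, an alternative chosen after seeing the data; each called 6 in the window. The calls in the window follow from how it was chosen and say nothing of stability. Leaving out 1 library in turn gave 6 of them each time, 3115 to 3456 higher and 2366 to 2785 lower in the table, log2 differences of 5.77 to 6.30 for MSTRG.21903 and 5.68 to 6.14 for MSTRG.21904, and r of 0.965 to 0.987 within the knockout. Whether replicate numbers mark a pairing or batch of the libraries is not known here, and the main test used none. Deviations of same-numbered libraries correlated at -0.003 to 0.497, and 2 of 5 knockout libraries matched their own number best. With the number as a replicate block, on 10 libraries, 3715 were higher and 3217 lower, and 6 were called in the window. The same 10 libraries without the block, leaving out knockout 6, gave 3199 higher and 2521 lower. In the block fit the log2 differences were 5.94 for MSTRG.21903 and 5.75 for MSTRG.21904. Depth limits the wild-type side, where 5 of the 7 features had 0 to 3 reads in all.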
